A study of Mus musculus with 9 samples.

Results

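The testis-specific serine kinases are a small family of protein kinases encoded in the mouse by Tssk1 to Tssk6. They were taken here as the rows of the deposited count table that carry these 6 symbols. All 6 were found among its 19991 genes, and all 6 passed the filter on low counts that left 15834 genes for testing. The table covers whole testis of ICR mice, an outbred stock, aged 8 weeks, after injection of PBS (Control), of AZ82 at 1 µM or of CW069 at 50 µM. AZ82 and CW069 are inhibitors of KIFC1, a minus-end-directed kinesin of the spindle and of the spermatid manchette,. Each group held 3 libraries. Whether each sample was a different animal is not stated in the labels. Every p-value rests on the variation among these 9 samples, part of which may be technical.

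Tssk genes are switched on in male germ cells as meiosis ends and the round spermatid begins to form a sperm. The kinases belong to the calcium/calmodulin-dependent kinase group and act while histones give way to protamines and the tail is assembled. TSSK1 and TSSK2 bind and phosphorylate TSKS, a substrate that sits with them in the chromatoid body and in a ring around the forming tail. TSSK4 phosphorylates the outer dense fibre protein ODF2, and TSSK6, which needs HSP90 and the co-chaperone TSACC, takes part in chromatin condensation. Male mice without Tssk1 and Tssk2 together, without Tssk3 or without Tssk6 are sterile.

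The 6 genes lie on 5 chromosomes. Tssk1 and Tssk2 are tandem neighbours on chromosome 16, 714 bases apart on the same strand. This distance starts at the end of the 3700-base GENCODE transcript of Tssk1, whose RefSeq gene is shorter, at 1451 bases. Each of the pair is a single exon, as is Tssk6 on chromosome 8. Tssk3 on chromosome 4 has 2 exons, Tssk4 on chromosome 14 has 4 and Tssk5 on chromosome 15 has 8 in the first listed transcript of each (GENCODE M21, build GRCm38, used for structure because the counts were made on GRCm39). The coding sequences of Tssk1 and Tssk2 were identical at 83.5% of 1036 aligned bases. The other 14 pairs of members lay between 63.4% and 68.9%. The heart of the kinase domain shows how close the neighbours are. The stretches printed here run from the codons of the catalytic loop motif to those of the magnesium-binding motif, both in capitals, and each is the coding strand read from the GENCODE transcript. For Tssk4 a later listed transcript was used, because the first one does not hold both motifs in this form. The percentages above and the Tssk4 level per length given later use the first of its 7 listed transcripts. Both ends of the range above, 63.4% and 68.9%, are pairs with Tssk4.
Tssk1: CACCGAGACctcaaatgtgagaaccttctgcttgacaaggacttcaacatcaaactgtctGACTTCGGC
Tssk2: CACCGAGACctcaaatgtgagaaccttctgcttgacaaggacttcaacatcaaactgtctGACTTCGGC
Tssk3: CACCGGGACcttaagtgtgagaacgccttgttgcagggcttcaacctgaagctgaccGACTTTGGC
Tssk4: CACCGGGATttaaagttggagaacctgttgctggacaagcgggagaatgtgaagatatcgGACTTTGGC
Tssk5: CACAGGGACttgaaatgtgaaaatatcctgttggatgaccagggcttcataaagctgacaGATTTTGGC
Tssk6: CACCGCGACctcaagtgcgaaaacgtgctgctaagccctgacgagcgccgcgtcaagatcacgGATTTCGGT
Tssk1 and Tssk2 were identical over all 69 bases, while Tssk4 matched Tssk1 at 45 of 69 and Tssk5 at 44 of 69. These bases are part of a run of 113 identical bases, from position 371 to position 483 of both coding sequences. A read that lies inside the run cannot be assigned to either gene, so the counts of Tssk1 and Tssk2 carry that uncertainty. No other pair of members shared more than 14 bases in a row.

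The neighbours also share letters in front of their starts, and the values of the pair are compared later. Up to 60 bases before each start are given, stopping short of any annotated exon, 5′ to 3′ from the RefSeq promoter table (GRCm38.p6, plus strand), with the 8-base motif TGACTTCA and its reverse complement TGAAGTCA in capitals.
Tssk1, chr16:17894146-17894202: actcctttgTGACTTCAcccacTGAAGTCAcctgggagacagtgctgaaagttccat
Tssk2, chr16:17898577-17898636: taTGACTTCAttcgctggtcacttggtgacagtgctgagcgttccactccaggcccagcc
The motif, noticed in these bases and then searched on both strands in the 250 bases before the start, was in the windows of 2 of the 5 members in the table, Tssk1 and Tssk2. It was in 1.32% of 27025 promoters. As the motif was picked from these 2 sequences, its presence in both was given, so this share tests nothing. The longest run the 2 windows had in common was 11 bases, GACAGTGCTGA. The full cyclic AMP response element, TGACGTCA, was in none of the 5 windows and in 1.62% of all promoters. Its first 5 bases, TGACG, was in the window of Tssk6 alone and in 17.9% of promoters. These matches are descriptions of letters and say nothing of binding. The windows were searched with exons included. All 250 bases of the Tssk3 window lay in annotated exons of Tssk3, and all 250 of the Tssk6 window in exons of Ndufa13. The windows of Tssk1 and Tssk2 held 138 and 110 exon bases of Dgcr2, and that of Tssk4 held no exon.

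Total counts ran from 13856070 to 18102593 per library. No pair of replicate libraries agreed within sampling noise, since the chi-square per degree of freedom lay between 3.48 and 30.7. Both pairs that hold Control 3 were the 2 highest, at 30.7 and 26.0. Germ cell markers were well covered, with 15 of 15 genes of the elongating spermatid list and 13 of 13 of the round spermatid list tested. The elongating spermatid list summed to 10270 CPM (the count scaled to library size, with TMM) in Control 3 and to between 17151 and 24354 CPM in the other 8 libraries. Every comparison with Control is therefore also given without Control 3. In whole tissue, fewer cells of a type and less RNA per cell cannot be told apart.

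Per length of transcript, Tssk2 was the member with the highest level in every library, with a mean over all 9 of 287 CPM per kilobase. Tssk3 at 121, Tssk6 at 118 and Tssk4 at 105 CPM per kilobase followed. The Tssk3, Tssk6 and Tssk4 ranges over libraries overlapped, so the order of these 3 is not set beyond their spread. Tssk5 was lowest at 15.5 CPM per kilobase, and its highest library stayed below the lowest of every other member. The place of Tssk1 depended on its length. It stood at 84.9 CPM per kilobase with the 3700 bases of the GENCODE transcript. With the 1451 bases of the RefSeq gene, its group means were 195 ± 22.1 CPM per kilobase in Control, 222 ± 5.34 after AZ82 and 232 ± 6.21 after CW069 (SD, n = 3 each), above Tssk3, Tssk4 and Tssk6. By plain CPM, without length, Tssk2 ranked 403 and Tssk1 623 among the 15834 genes tested, and Tssk5 ranked 7116.

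**Figure D1:**
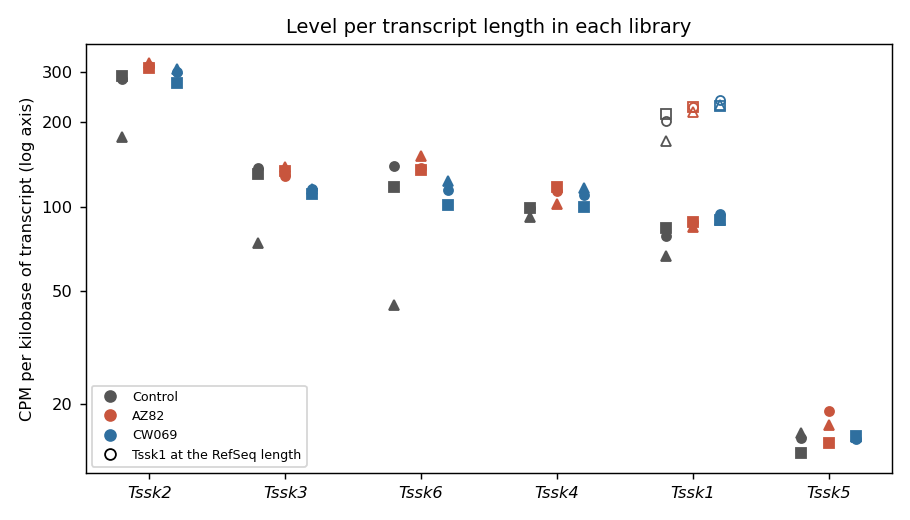
Level of each Tssk gene in CPM per kilobase of transcript (log axis) in each of the 9 libraries, with circles, squares and triangles for libraries 1, 2 and 3 of a group; open symbols show Tssk1 with the RefSeq length. Tssk2 is highest in all libraries, with a mean of 287, and Tssk5 lowest, with a mean of 15.5.

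Tssk6 varied most between libraries. Its level was 186, 157 and 59.7 CPM in Control 1 to 3, 183, 180 and 203 CPM in AZ82 1 to 3, and 153, 136 and 164 CPM in CW069 1 to 3. Control 3 was far below the other 8 libraries, and the AZ82 libraries lay above the CW069 libraries without overlap. The highest library was 3.39 times the lowest, against a median of 1.24 times over 4503 tested genes whose mean reached 50 CPM.

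Tssk3 and Tssk2 had the same low library with a smaller gap. Tssk3 stood at 175, 167 and 95.2 CPM in Control 1 to 3, at 165, 172 and 177 CPM in AZ82 1 to 3, and at 148, 142 and 148 CPM in CW069 1 to 3. All CW069 libraries lay between Control 3 and the rest, below every AZ82 library. Tssk2 was at 395, 403 and 246 CPM in Control 1 to 3, 436, 432 and 447 CPM in AZ82 1 to 3, and 417, 380 and 426 CPM in CW069 1 to 3. The AZ82 libraries were above all Control and all CW069 libraries. The highest library was 1.86 times the lowest for Tssk3 and 1.82 times for Tssk2.

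Tssk1 and Tssk4 were steadier. Tssk1 was at 292, 310 and 248 CPM in Control 1 to 3, 327, 327 and 313 CPM in AZ82 1 to 3, and 347, 330 and 333 CPM in CW069 1 to 3. The 3 groups did not overlap, with Control lowest and CW069 highest. Tssk4 stood at 141, 140 and 130 CPM in Control 1 to 3, 161, 167 and 145 CPM in AZ82 1 to 3, and 156, 142 and 166 CPM in CW069 1 to 3. All 6 inhibitor libraries lay above all 3 Control libraries, by a narrow margin for CW069 2. Tssk5, at 22.9, 20.2 and 23.8 CPM in Control, 28.6, 22.0 and 25.5 CPM after AZ82 and 22.8, 23.3 and 23.2 CPM after CW069, showed no order of groups.

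**Figure D2:**
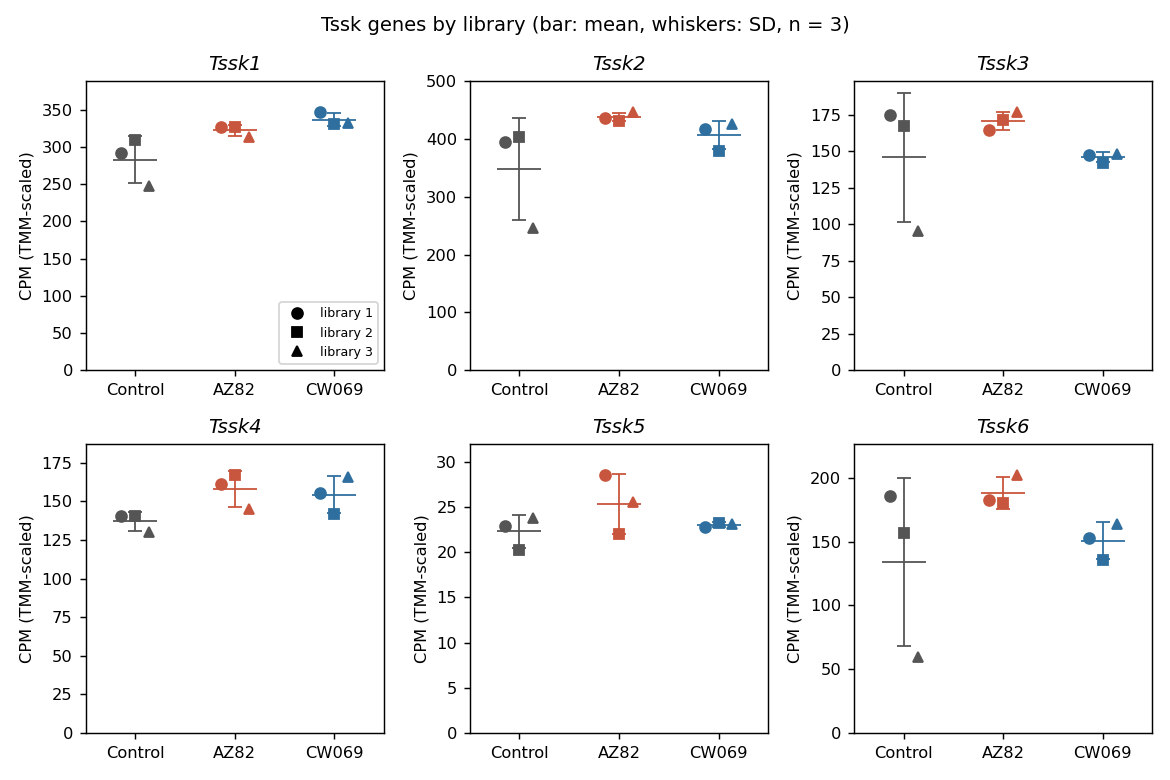
CPM (scaled by TMM) of each Tssk gene in each library, by group; each panel has its own axis from 0, symbols mark libraries 1 to 3, horizontal bars the mean and whiskers the SD (n = 3). Control 3, the grey triangle, is lowest for every gene except Tssk5, and most so for Tssk6 at 59.7 CPM.

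Control 3 separated the members from one another. Its log2 ratio to the mean of Control 1 and Control 2 was -1.51 for Tssk6, -0.85 for Tssk3 and -0.70 for Tssk2. It was -0.28 for Tssk1, -0.11 for Tssk4 and 0.15 for Tssk5. Control 3 was the lowest of the 9 libraries for 5 of the 6 members, against 18.8% of all genes tested. Only 0.676% of all genes had a lower ratio than Tssk6, and 3.82% had a lower one than Tssk3. For Tssk1 18.7% of genes were lower, for Tssk4 32.7% and for Tssk5 73.9%.

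Marker lists in the same library also differed from one another. The median ratio was -1.21 over the 15 elongating spermatid markers and -0.71 over the 16 genes of the exchange of histones for protamines. It was -0.15 over the 13 round spermatid markers, 0.09 over the 15 spermatocyte markers and 0.01 over all genes tested. Tssk6 thus lay below the median of the elongating spermatid list and Tssk1 below that of the round spermatid list. Tssk5 lay near the spermatocyte list. Some lists from outside the germ line were low too. The 8 red blood cell and adipocyte markers had a median of -0.59, with 6 below 0. The 11 macrophage markers had -0.32, all 11 below 0. Only 2 of these 11 were lowest of the 9 libraries in Control 3, and their sum was highest in Control 1, at 188 CPM. Other such lists were near 0, with medians of -0.06 over 13 Sertoli cell, 0.03 over 10 Leydig cell and 0.03 over 8 peritubular myoid and vascular markers. The part of these marker levels in the Tssk values was not tested.

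**Figure D3:**
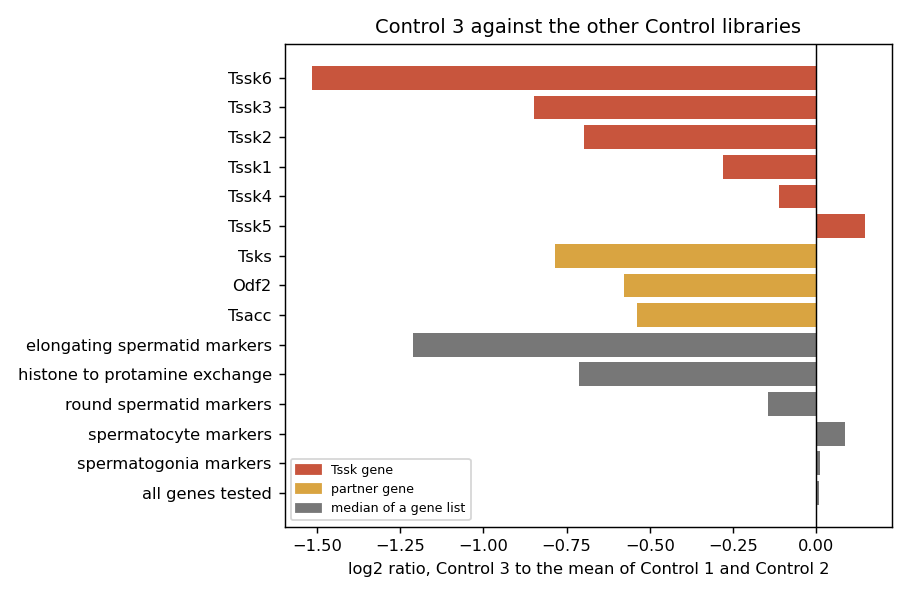
Log2 ratio of Control 3 to the mean of Control 1 and Control 2 for the 6 Tssk genes, for 3 partner genes and as the median of 5 gene lists and of all genes tested. Tssk6 at -1.51 is lower than the elongating spermatid median of -1.21, while Tssk5 at 0.15 is the one member above 0.

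AZ82 against Control asks how the kinases differed after the first inhibitor. All 6 members had a log2 fold change above 0, where 49.7% of all genes did. Their median was 0.22 against -0.0010 over all genes. The 15 elongating spermatid markers had a median of 0.35, all 15 above 0, and the 13 round spermatid markers 0.15, with 12 above 0. With spermatid marker counts as library size, 5 of the 6 members were below 0, though above the median of all genes under that scaling, -0.46. No member passed the test over all genes (edgeR quasi-likelihood, lowest adjusted p = 0.554), in a comparison where 0% of genes were called. Tssk1 and Tssk4 were the 2 members with an unadjusted p under 0.05, both higher, where 8.84% of all genes had such a p and 4.04% were higher with it. In 3 members, Tssk1, Tssk2 and Tssk4, every AZ82 library lay above every Control library. The groups did not overlap in 15.3% of genes, with AZ82 higher in 6.65%. DESeq2 and limma-voom called no member either, while DESeq2 called 2 genes higher and 3 lower and limma-voom 1 lower.

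The size of these differences rested in part on Control 3. Tssk6 had the largest, 0.49 ± 0.30 on the log2 scale (SE; 188 ± 12.3 against 134 ± 66.1 CPM, SD, n = 3), and 0.13 ± 0.10 without Control 3. Tssk2 had 0.33 ± 0.15 (438 ± 7.67 against 348 ± 88.5 CPM), and 0.13 ± 0.06 without that library. Tssk3 went from 0.23 ± 0.18 to -0.0041 ± 0.06. Tssk4 and Tssk5, the members least low in Control 3, moved less with that library. Tssk4 had 0.20 ± 0.08 with all libraries and 0.16 ± 0.08 without Control 3, and Tssk5 had 0.19 ± 0.10 and 0.23 ± 0.12. Tssk5 rested more on AZ82 1 and 2, with 0.09 without AZ82 1 and 0.28 without AZ82 2, and on Control 2, with 0.11 without it. Tssk1 had 0.19 ± 0.08 and 0.10 ± 0.06.

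The second inhibitor, CW069, was set against the same Control libraries, so the comparisons share them. The log2 fold changes were again above 0 in 6 of 6 members, where 49% of all genes were. Their median was 0.17 against -0.0038 over all genes. The 15 elongating spermatid markers had a median of 0.07, with 13 above 0, and the 13 round spermatid markers 0.08, with 11 above 0. With spermatid marker counts as library size 3 of the 6 members were below 0, each above that scaling's median of all genes, -0.23. With plain library size 2 of the 6 members were below 0. None passed the test (lowest adjusted p = 0.541 by edgeR), where 0% of genes were called and DESeq2 called 11 genes higher and 12 lower, with no member among them. Tssk1 was the 1 member at an unadjusted p under 0.05, where 7.34% of genes had such a p and 3.63% were higher with it. Its log2 fold change was 0.25 ± 0.08 (337 ± 9.01 against 283 ± 32.0 CPM; 95% interval 0.07 to 0.43; edgeR adjusted p = 0.541). In Tssk1 and Tssk4 every CW069 library lay above every Control library. The groups did not overlap in 13.4% of genes, with CW069 higher in 6.13%.

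Without Control 3, which leaves only Control 1 and Control 2 in that group, the members pointed in different directions after CW069. Tssk1 had 0.16 ± 0.06 (unadjusted p = 0.0202, edgeR adjusted p = 0.486) and Tssk4 had 0.14 ± 0.08. Tssk3 had -0.23 ± 0.06 (unadjusted p = 0.00304, edgeR adjusted p = 0.350) and Tssk6 -0.18 ± 0.10, where with all libraries they stood at 0.0018 ± 0.18 and 0.17 ± 0.30. Tssk2 had 0.23 ± 0.15 with all libraries and 0.03 ± 0.06 without Control 3. Tssk5 had 0.05 ± 0.10 with all libraries and 0.10 ± 0.12 without Control 3. For the fit without Control 3, the share of all genes with a small unadjusted p is not given here.

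**Figure D4:**
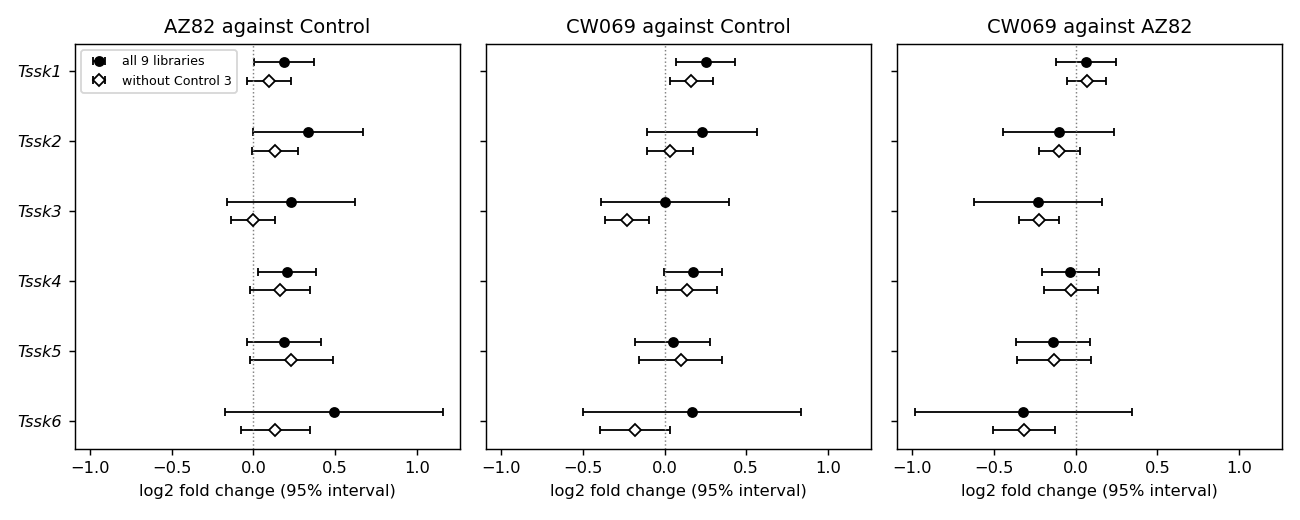
Log2 fold change of each Tssk gene with its 95% interval in 3 comparisons, scaled by TMM, from all 9 libraries (filled circles) and from the 8 without Control 3 (open diamonds). Removing Control 3 moves Tssk3 after CW069 from 0.0018 to -0.23 and Tssk6 from 0.17 to -0.18, while the CW069 against AZ82 values keep their place with narrower intervals.

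Over the mean of both inhibitors, all 6 members were above 0, where 49.1% of genes were, and 2 members had an unadjusted p under 0.05 and lay above Control in all 6 libraries. Tssk1 had a log2 fold change of 0.22 ± 0.07 and Tssk4 of 0.19 ± 0.07 (edgeR adjusted p = 0.490 for both). Of all genes, 9.57% had such an unadjusted p, 4.31% higher. The groups did not overlap in 5.11%, with 2.19% higher, and 0.00632% passed the adjusted test. With spermatid marker counts as library size both were below 0, Tssk1 at -0.09 and Tssk4 at -0.14, above the median of all genes under that scaling, -0.35. Without Control 3 the values were 0.13 ± 0.05 for Tssk1 and 0.15 ± 0.07 for Tssk4. Tssk6 went from 0.33 ± 0.26 to -0.02 ± 0.09 and Tssk3 from 0.12 ± 0.15 to -0.12 ± 0.05. Tssk2 stood at 0.28 ± 0.13 and 0.08 ± 0.06, and Tssk5 at 0.12 ± 0.09 and 0.17 ± 0.10. With all libraries, the 15 elongating spermatid markers had a median of 0.19, all 15 above 0. The 13 round spermatid markers had 0.11, with 12 above 0. At an unadjusted p under 0.05 by edgeR, 1 elongating and 3 round spermatid markers were higher.

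CW069 against AZ82 leaves the Control libraries out of the difference, although they add to the estimate of the spread. The compounds were given at different doses, so the values are set side by side. In 1 of 6 members the difference was above 0, where 49.6% of genes were. With spermatid marker counts as library size 5 of 6 were above 0, but only Tssk1 above the median of all genes under that scaling, 0.23. In 3 members, Tssk2, Tssk3 and Tssk6, every CW069 library lay below every AZ82 library, as it did in 5.8% of genes. In Tssk1 every CW069 library lay above, as it did in 5.52% of genes, so that groups did not overlap in 11.3%. The log2 difference was -0.32 ± 0.30 for Tssk6, -0.23 ± 0.18 for Tssk3, -0.14 ± 0.10 for Tssk5 and -0.10 ± 0.15 for Tssk2. The Tssk5 value was -0.04 without AZ82 1 and -0.23 without AZ82 2. It was -0.03 ± 0.08 for Tssk4 and 0.06 ± 0.08 for Tssk1. No member passed the test (edgeR adjusted p = 0.999 for each), in a comparison where 0% of genes were called, and none had an unadjusted p under 0.05, where 4.97% of genes did.

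The fit without Control 3 gave narrower intervals. In it, the differences between the inhibitors were -0.32 ± 0.09 for Tssk6 (unadjusted p = 0.00380, edgeR adjusted p = 0.316) and -0.22 ± 0.05 for Tssk3 (unadjusted p = 0.00168, adjusted p = 0.247). They were -0.10 ± 0.06 for Tssk2 and 0.07 ± 0.05 for Tssk1. With all libraries Tssk6 had -0.32 ± 0.30 and Tssk3 had -0.23 ± 0.18, so mainly the spread changed. The small unadjusted p-values thus rest on leaving out a library already known to be low for these genes. The share of all genes under an unadjusted p of 0.05 in this fit is not given here. The 2 members lowest in Control 3, Tssk6 and Tssk3, were also the 2 with the largest difference between CW069 and AZ82. The elongating spermatid list moved with them, at 20639 to 24354 CPM in sum after AZ82 and 17151 to 19783 CPM after CW069. Its 15 members had a median difference of -0.21, 14 of them below 0, and the 13 round spermatid markers had a median of -0.07. Their part in the Tssk differences was not tested.

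Ratios of counts between members within a library do not depend on how libraries are scaled. The AZ82 libraries 1 to 3 held 1.79, 1.82 and 1.55 reads of Tssk1 per read of Tssk6, and the CW069 libraries 1 to 3 held 2.27, 2.44 and 2.03. In Control 1 to 3 it was 1.57, 1.98 and 4.15. The CW069 libraries thus lay above the AZ82 libraries without overlap, and Control 3 above all. The order of the inhibitors was fixed by the levels already given, where Tssk1 was higher after CW069 and Tssk6 lower, each without overlap. That also holds for the ratios of Tssk1 to Tssk3 and to Tssk2, so none of them is a separate result. Tssk1 to Tssk3 was 1.98, 1.90 and 1.77 in AZ82 1 to 3 against 2.35, 2.32 and 2.25 in CW069 1 to 3. The tandem neighbours themselves parted in the same way, with 0.749, 0.757 and 0.701 reads of Tssk1 per read of Tssk2 in AZ82 1 to 3. In CW069 1 to 3 there were 0.832, 0.869 and 0.781. In Control 1 to 3 that ratio was 0.738, 0.769 and 1.01.

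Of the 15 pairs of members, 7 had ratios that did not overlap between CW069 and AZ82, where 12.9% of all pairs of tested genes whose means reached 20 CPM did so. In AZ82 against Control 0 of the 15 pairs did not overlap, and in CW069 against Control 1 did not, Tssk2 to Tssk3. The share over all pairs was not computed for these comparisons with Control, so the counts cannot be set beside the 7. Among the 7, the ratios of Tssk1 to Tssk2, Tssk3 and Tssk6 were fixed by the levels of these genes, as stated above. Control ranges hold Control 3 and can be wide, as for Tssk1 to Tssk6 at 1.57 to 4.15. The 15 pairs share 6 genes and are not independent, and with 3 libraries against 3 an exact two-sided permutation test of a single ratio cannot go below p = 0.1. Tssk1 to Tssk4, in contrast, ran from 1.96 to 2.16 after AZ82, from 2.01 to 2.33 after CW069 and from 1.90 to 2.21 in Control, which overlap.

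**Figure D5:**
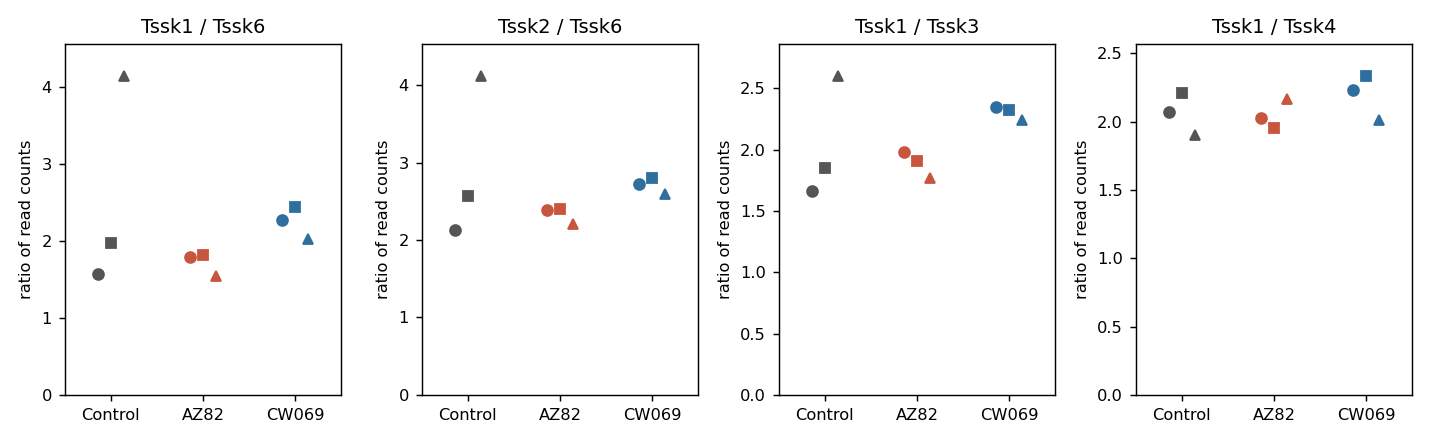
Ratio of the read counts of 2 Tssk genes within each library, for 4 pairs, by group; symbols mark libraries 1 to 3 and each axis starts at 0. Tssk1 to Tssk6, Tssk2 to Tssk6 and Tssk1 to Tssk3 are higher in every CW069 library than in any AZ82 library, with Control 3 highest, while Tssk1 to Tssk4 overlaps between the groups.

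Likeness over the 9 libraries was measured as the root mean square difference between log2 CPM values, each centred on its own mean. Among members, Tssk1 and Tssk4 were closest at 0.09, followed by Tssk2 and Tssk3 at 0.10. Tssk5 and Tssk6 were farthest apart at 0.50. The tandem pair Tssk1 and Tssk2 stood at 0.15. Genes that vary little between libraries differ little by this measure. The median difference from the other named genes whose mean reached 10 CPM was 0.18 for Tssk1 and 0.28 for Tssk2. That median was 0.29 for Tssk3, 0.16 for Tssk4, 0.17 for Tssk5 and 0.52 for Tssk6. Over 9568 other named genes whose mean reached 10 CPM, the nearest to Tssk6 was Oxct2b at 0.04, a ketone body enzyme gene of spermatids, followed by its paralog Oxct2a at 0.07 and Spata32 at 0.08. Oxct2b stood at 173, 146 and 56.3 CPM in Control 1 to 3 and 175, 165 and 190 CPM in AZ82 1 to 3. In CW069 1 to 3 it was at 133, 124 and 151 CPM. Its low library and its order of inhibitors were those of Tssk6, which follows from picking it as the nearest gene.

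The genes nearest to Tssk3 were Actl9, an actin-like protein of the sperm head, at 0.03, then Oplah at 0.04 and Gpat4 at 0.05. Those nearest to Tssk2 were Cep295nl at 0.03, Fam110a at 0.04 and the deubiquitinase gene Usp44 at 0.04. Ankrd36 at 0.03, the thymosin gene Tmsb10 at 0.04 and Tex33 at 0.04 were nearest to Tssk1. Fam170b at 0.03, the tektin gene Tekt3 at 0.04 and the exoribonuclease gene Dis3l2 at 0.04 were nearest to Tssk4. Fam89b at 0.04, Cnst at 0.05 and Usp20 at 0.06 were nearest to Tssk5.

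The known partners and substrates form a list of 10 genes, all tested, of which 0 passed over all genes in any of the 4 comparisons and 0 had an unadjusted p under 0.05 by edgeR. Tsks, the substrate of TSSK1 and TSSK2, was at 405, 397 and 233 CPM in Control 1 to 3, 459, 424 and 457 CPM in AZ82 1 to 3, and 391, 388 and 429 CPM in CW069 1 to 3. As with Tssk2, Control 3 was low. Its log2 fold change was 0.37 ± 0.17 after AZ82 and 0.22 ± 0.17 after CW069 (edgeR adjusted p = 0.568 and 0.767). Odf2, the substrate of TSSK4, was at 4077, 3895 and 2670 CPM in Control 1 to 3. Its AZ82 libraries had a mean of 4265 ± 113 CPM and its CW069 libraries one of 3761 ± 151 CPM (SD, n = 3). Tsacc, the co-chaperone of TSSK6, was at 133, 136 and 92.8 CPM in Control 1 to 3, with means of 146 ± 17.2 CPM for AZ82 and 131 ± 9.77 CPM for CW069. Of these 3, each was lowest in Control 3 among the 9 libraries.

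Of the other 7 partners, Pdpk1 was low in Control 3 as well. Control 3 stood to the mean of Control 1 and 2 at a log2 ratio of -0.42 for Pdpk1, the kinase that activates TSSK3. The ratio was -0.11 for the spermatid transcription factor gene Crem, -0.02 for the phosphatase gene Ppp1cc and 0.05 for the histone variant gene H2ax. The chaperone genes Hsp90aa1, Hsp90ab1 and Hspa8 had 0.21, -0.11 and -0.04. After AZ82, Pdpk1 had a log2 fold change of 0.22 ± 0.11, Crem 0.11 ± 0.08, Ppp1cc 0.03 ± 0.06 and H2ax 0.06 ± 0.09. The chaperones had 0.03 ± 0.09 for Hsp90aa1, -0.11 ± 0.07 for Hsp90ab1 and -0.08 ± 0.08 for Hspa8. After CW069 the same 7 genes lay between -0.05 for Hspa8 and 0.14 for Pdpk1.

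Other kinases of male germ cells form a list of 28, of which 26 were tested and 0 passed. Over the mean of both inhibitors, 18 lay above 0 with a median of 0.07, and 4 were higher at an unadjusted p under 0.05. Of all genes tested, 49.1% were above 0 in this comparison and 4.31% were higher at that p, which holds beside each list that follows. These were Hipk4, which shapes the spermatid head (0.20 ± 0.07), Smok2a (0.70 ± 0.28), Mok (0.16 ± 0.06) and Mak (0.15 ± 0.06). Control 3 over Control 1 and 2 gave this list a median of 0.0034 on the log2 scale, but Smok2a stood at -1.37. The list of 16 genes of the exchange of histones for protamines had a median of 0.19 over both inhibitors. Of these, 15 were above 0, 3 were higher at that p and 0 were called. Prm1, Prm2, Prm3, Tnp1, Tnp2 and Hmgb4 are also in the elongating spermatid list. The annulus and mitochondrial sheath list of 18 had 0.11, with 11 above 0, 3 higher at that p and 0 called. The chromatoid body list of 10 had 0.02, with 6 above 0, 0 higher at that p and 0 called. Leydig cell, Sertoli cell, spermatogonia and macrophage markers lay mostly on the other side of 0. The median was -0.32 over 10 Leydig cell markers and -0.08 over 13 Sertoli cell markers, all of them below 0. Taken apart, 12 Sertoli cell markers were below 0 after AZ82 but 6 after CW069, with medians of -0.13 and 0.01. Over the mean of both inhibitors, the median was -0.18 over 13 spermatogonia markers, 10 below 0. It was -0.20 over 11 macrophage markers, 10 below 0. Of 8 peritubular myoid and vascular markers 4 were below 0, and of 8 red blood cell and adipocyte markers 5 were. Of all 15834 genes tested, 8060 were below 0. None of these markers was called. At an unadjusted p under 0.05 by edgeR, 7 Leydig cell, 2 Sertoli cell, 1 spermatogonia and 2 macrophage markers were lower. So were 1 of the red blood cell and adipocyte markers and 834 of all 15834 genes tested. The Leydig list summed to 1861 to 1985 CPM in Control, 1571 to 1911 CPM in the AZ82 group and 1508 to 1547 CPM in the CW069 group, and its part in the Tssk values was not tested.

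Genes beside the members were read because shared reads could move a count. Tssk6 shares 28.1% of its exon bases with Ndufa13, a mitochondrial complex gene on the other strand. The libraries were made with a stranded kit, but whether the counting used strand is not given in the sources used here. Ndufa13 was at 61.4, 71.6 and 49.8 CPM in Control 1 to 3, with means of 67.6 ± 2.52 CPM for AZ82 and 67.4 ± 4.33 CPM for CW069, a narrower spread than that of Tssk6. Dgcr2, on the other strand, shares 1.70% of the exon bases of Tssk1. It was at 164, 173 and 138 CPM in Control 1 to 3, with means of 178 ± 2.76 CPM for AZ82 and 179 ± 5.37 CPM for CW069, and Control lowest as for Tssk1. Fam229a lies 167 bases from Tssk3 on the other strand, with no exon base in common. It had a log2 fold change of 0.33 ± 0.12 after CW069 (edgeR adjusted p = 0.626), where Tssk3 had 0.0018 ± 0.18.

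The depth behind the members was 308 to 408 reads per library for Tssk5 and 898 to 7507 for the others. The 95% interval of a log2 fold change against Control reached 0.18 to 0.67 to either side for the 6 members, factors of 1.13 and 1.59, with Tssk6 the widest. The median over all genes tested was 0.28.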

How the data were processed

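RNA of whole testis from 9 samples in 3 groups had been sequenced. The authors deposited counts of reads per gene, without normalization. Each deposited single-sample file held the same value as the joint table in 19991 of 19991 genes. Per the submitters' processing notes, reads were handled with Trimmomatic, HISAT2 and HTSeq on GRCm39; versions, settings and the annotation are not given in the sources used here.

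Groups and replicate numbers came from the sample titles. Low counts were removed with filterByExpr, counts were scaled by TMM and fitted with edgeR 4.0.16 (R 4.3.3), a model of 3 group means fitted to the 9 libraries, with 6 residual degrees of freedom. P-values of its two-sided quasi-likelihood test were adjusted by Benjamini-Hochberg over 15834 genes, with a call at an adjusted p under 0.05. limma 3.58.1 and DESeq2 1.42.0 were alternatives. The pipeline was tested on simulated data.

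The members and lists were chosen with earlier results of these data known. The named genes were all members, all partners, up to 4 genes of another list by smallest p, the 3 nearest genes to each member, and annotated neighbours. RefSeq and GENCODE tables (both GRCm38) gave names, lengths and sequences; 5 of 6 members had a promoter entry. Tssk5 had none.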

Additional observations from a re-analysis of the deposited data

How the results depend on the processing

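Each of the 24 log2 fold changes (6 members, 4 comparisons) was computed under up to 18 other settings, 426 values in all, and no member was called in any of them (lowest edgeR, DESeq2 or limma-voom adjusted p = 0.226). In 398 of these values the sign was that of the value reported, and in 28 it was not. Most of the 28 came from taking the summed counts of spermatid markers as library size, which moved the median of all genes to -0.46 for AZ82 against Control, -0.23 for CW069 against Control, 0.23 for CW069 against AZ82 and -0.35 for the mean of both; the shift is part of that setting's construction. AZ82 against Control became -0.23 for Tssk1, -0.028 for Tssk2, -0.11 for Tssk3, -0.24 for Tssk4 and -0.29 for Tssk5. CW069 against Control became -0.11 for Tssk3, -0.051 for Tssk4 and -0.20 for Tssk5. CW069 against AZ82 became 0.12 for Tssk2, 0.00074 for Tssk3, 0.19 for Tssk4 and 0.088 for Tssk5. The mean of both became -0.088 for Tssk1, -0.11 for Tssk3, -0.14 for Tssk4 and -0.24 for Tssk5. With library size in place of TMM, CW069 against Control was -0.033 for Tssk3 and -0.00016 for Tssk5. Leaving out 1 library at a time gave ranges that cross 0: for AZ82 against Control -0.0041 to 0.38 (Tssk3); for CW069 against Control -0.23 to 0.15 (Tssk3), -0.018 to 0.10 (Tssk5) and -0.18 to 0.48 (Tssk6); for CW069 against AZ82 -0.090 to 0.030 (Tssk4); for the mean of both -0.12 to 0.27 (Tssk3) and -0.024 to 0.64 (Tssk6). The same step moved other values by over 1.5 times without crossing 0: for AZ82 against Control 0.096 to 0.25 (Tssk1), 0.13 to 0.45 (Tssk2), 0.092 to 0.28 (Tssk5) and 0.13 to 0.80 (Tssk6); for CW069 against Control 0.16 to 0.32 (Tssk1) and 0.032 to 0.35 (Tssk2); for CW069 against AZ82 -0.14 to -0.053 (Tssk2) and -0.23 to -0.042 (Tssk5); for the mean of both 0.13 to 0.29 (Tssk1), 0.083 to 0.40 (Tssk2) and 0.048 to 0.17 (Tssk5). A fit of only the groups compared gives no value for the mean of both. Apart from the shift named, the causes were not tested. With the replicate number as a block, 0 members were called in each comparison (lowest edgeR adjusted p = 0.643), and the single call over all genes for the mean of both became 0. The numbers did not pair the samples: same-numbered libraries deviated with correlations of -0.25 to 0.02 over 2000 genes, and 0 of 9 libraries correlated best with their own number.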
